A study of Mus musculus with 6 samples.

Results

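Chemokines are small secreted proteins that guide moving cells, and their receptors are G protein-coupled receptors on the cells that respond. This account follows the 62 genes for chemokines and chemokine receptors among the 24054 genes of a count table that covers MitoPark mice and their littermate controls and was made from substantia nigra (SN) tissue. The members were chosen by symbol alone, as Ccl, Cxcl, Ccr, Cxcr, Ackr or Xcr followed by a digit, with Cx3cl1, Ccrl2 and Xcl1 added. Of these, 61 genes are described, 39 ligands and 22 receptors, and all counts over the members refer to them. Cx3cr1, the receptor of Cx3cl1, and the platelet chemokines Pf4 and Ppbp have other symbols and are not members.

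Chemokines are named by the spacing of their first cysteines, which gives the CC, CXC, XC and CX3C families. Homeostatic chemokines such as Cxcl12 and Cx3cl1 are made without inflammation, by stromal cells and neurons, while inflammatory ones such as Ccl2 and Cxcl10 are switched on in activated glia and draw in leukocytes. Most receptors signal through inhibitory G proteins. Atypical receptors bind chemokines without this signal and remove or carry them.

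MitoPark mice (Dat +/Cre, Tfam LoxP/LoxP) lose Tfam, the mitochondrial transcription factor A gene, in cells that express the dopamine transporter. The Cre sits in 1 copy of the transporter gene, so the deletion is directed to dopaminergic (DAergic) neurons. Littermate controls carried 1 floxed Tfam allele and no Cre (Tfam +/LoxP, Dat +/+). The study's methods call such controls C57BL/6 mice, from MitoPark or parental strain litters, and name no background for the MitoParks. All mice were 16 to 17 weeks old. Polyadenylated RNA from 3 mice of each group was sequenced, and the sample labels call the tissue brain where the study's methods give the SN. The comparison asks which transcripts differ between MitoParks and littermate controls.

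The libraries held between 8140777 and 10528602 expected counts. Levels are given as CPM, counts scaled to library size with TMM normalization, and 3 counts correspond to between 0.285 and 0.365 CPM. Values are listed in the order of the mouse numbers, 1, 2 and 3, in each group. Tfam was at 40.3, 44.3 and 45.4 CPM in the littermate controls, against 32.6, 33 and 33.2 CPM in the MitoParks. The groups did not overlap, and the log2 fold change of -0.40 (standard error 0.11) did not reach the 1.5-fold cutoff. The DAergic markers Th, Slc6a3, Slc18a2, Ddc and Nr4a2 were all detected, and their sum was 1021.5 CPM in littermate control 3 against 189.4 to 353.0 CPM in the other mice. Of 14568 genes tested with the quasi-likelihood test of edgeR, 84 passed both cutoffs, an unadjusted p below 0.05 with more than a 1.5-fold difference, and none had an adjusted p below 0.05 (161 had an unadjusted p below 0.05, and edgeR's exact and likelihood ratio tests gave 1 gene each by adjusted p, DESeq2 and limma-voom 0). Every call on a chemokine gene below therefore rests on unadjusted p-values. The tissue is bulk, so fewer cells of a type and less RNA per cell cannot be told apart.

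Few of these genes were read often. At least 1 mouse had more than 3 counts for 25 of the 61 genes, and all 6 mice had more than 3 for 14. A further 26 genes never rose above 3 counts, and 10 had no count in any mouse, namely Ccl1, Ccl21a, Ccl26, Ccr1l1, Ccr6, Ccr8, Cxcl2, Cxcl9, Cxcr1 and Ccl21c, whose only value was a 0.25 count. Of 24 CC ligands 10 were above 3 counts in some mouse, as were 5 of 13 CXC ligands, 3 of 10 CC receptors, 3 of 7 CXC and XC receptors, 3 of 5 atypical receptors and Cx3cl1. A mean above 1 CPM in at least 1 group, the limit for testing, was reached by 16 genes, of which 14 passed in both groups. Ccl27b and Ccr10 passed through the littermate controls alone.

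**Figure D1:**
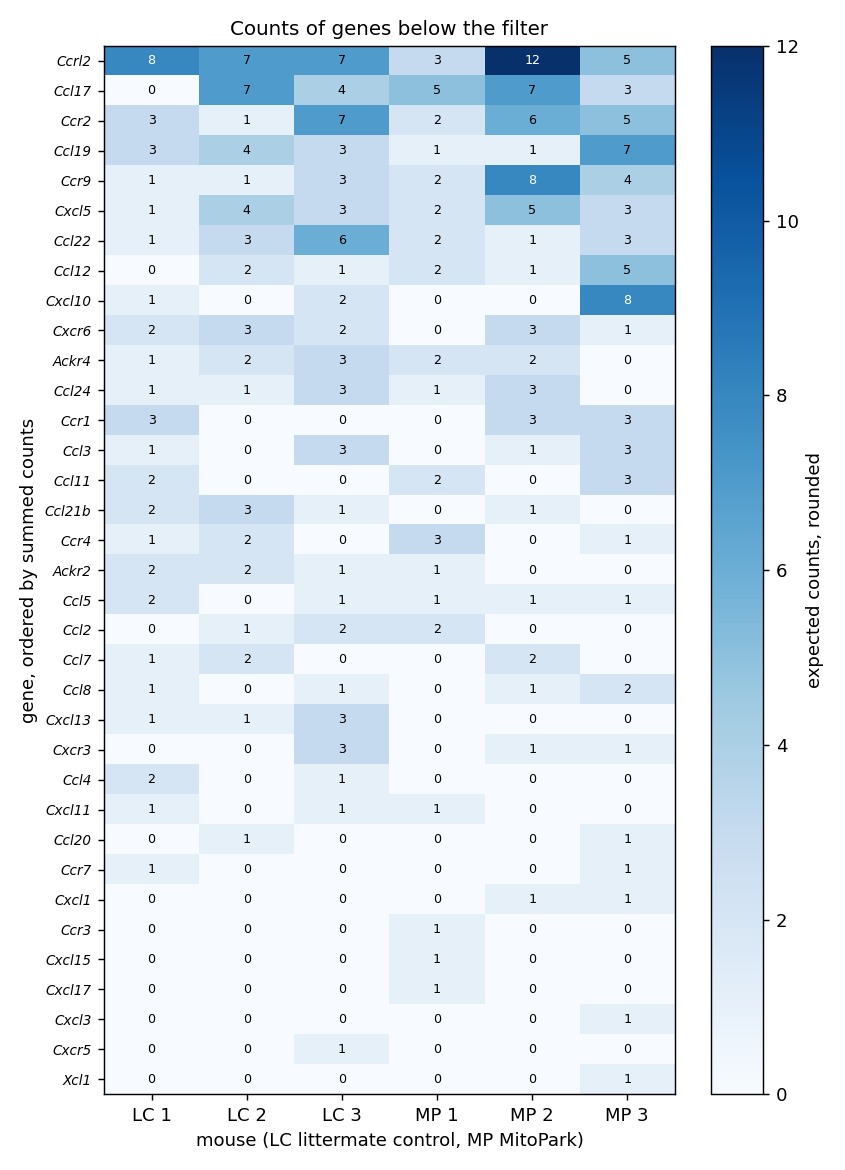
Expected counts, rounded to whole numbers, of the 35 genes below the test limit that had at least 1 count, with 1 row per gene and 1 column per mouse. No cell exceeds 12 counts, the value of Ccrl2 in MitoPark 2, and most cells hold 3 counts or fewer.

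Several inflammatory chemokines had few or no counts in either group. Ccl2, which recruits monocytes, had 0, 1 and 2 counts in the 3 littermate controls, against 2, 0 and 0 in the MitoParks. The inflammatory CC ligands Ccl3, Ccl4 and Ccl5 never exceeded 3 counts each. Cxcl10, an interferon-induced ligand of Cxcr3, had 1, 0 and 2 counts in the 3 littermate controls, against 0, 0 and 8 in the MitoParks, so its counts came mainly from MitoPark 3. Ccl12, a further ligand of Ccr2, likewise had its highest count in MitoPark 3, at 5. Of the near-identical Ccl21 copies, ligands of Ccr7, Ccl21b had 2, 3 and 1 counts in the 3 littermate controls, against 0, 1 and 0 in the MitoParks, and all its 150-base windows occur in other genes. Differences of a few counts are not resolved at this depth.

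Cx3cl1 stood far above the rest. It took between 47.4% and 60.2% of all counts of the 61 genes in each mouse. Ordered by mean CPM per kilobase of the longest transcript, Cx3cl1 was at 72.7, Cxcl14 at 33.4, Ccl27a at 26.9, Ackr1 at 23.2 and Cxcl12 at 7.64. The range of Cx3cl1 over the 6 mice did not meet that of Cxcl14, and Cxcl12 lay apart from both Ackr1 above it and Cxcr2 below it. The ranges of Cxcl14, Ccl27a and Ackr1 overlapped from neighbour to neighbour, as did all neighbours from Cxcr2, at 3.35 CPM per kilobase, down to Xcr1, at 0.322. Homeostatic ligands and 1 atypical receptor thus held the first 5 places.

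**Figure D2:**
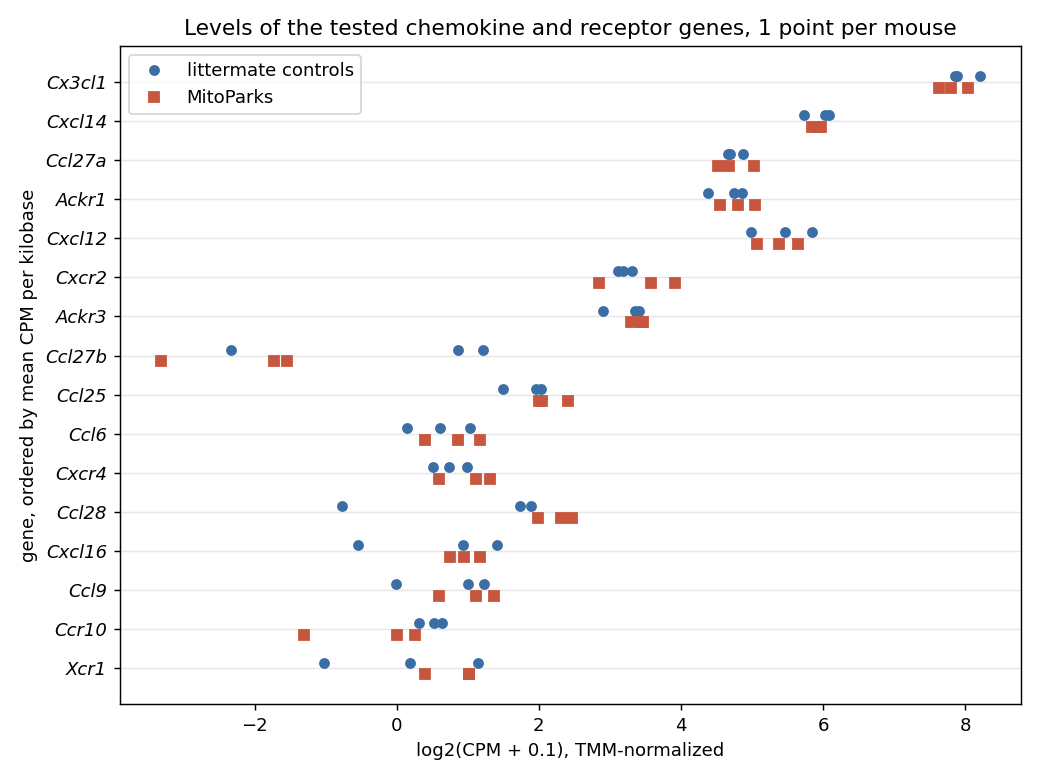
TMM-normalized levels of the 16 tested genes as log2(CPM + 0.1), ordered from top to bottom by mean CPM per kilobase, with 1 point per mouse. Littermate controls (circles) and MitoParks (squares) overlap in 14 of the 16 genes and are apart for Ccl28 and Ccr10.

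Of the 16 tested genes, 1 was called, Ccl27b, which was lower in MitoParks. Among all genes tested 0.378% were called higher and 0.199% lower, or 0.577% in either direction, and 1 call is too few to describe the family. The fitted log2 fold change was above 0 for 11 genes and below 0 for 5, with a median of 0.17, where 48.6% of all genes tested were above 0 and their median was -0.00473. Without MitoPark 3 the median was 0.04. All 3 tested CXC and XC receptors and both atypical receptors had positive estimates, and none of these passed the test. The groups did not overlap for Ccl28 (higher in MitoParks) and Ccr10 (lower), where 2.43% of all genes tested did not overlap with MitoParks higher and 2.28% with MitoParks lower, 4.71% in all. Ccr10, like Ccl27b, passed the test limit only through the littermate controls, the group where it was higher. Summed over the 22 receptors, the level was 56, 47.9 and 47.3 CPM in the littermate controls, against 60.5, 48.5 and 61.2 CPM in MitoParks, which overlapped.

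**Figure D3:**
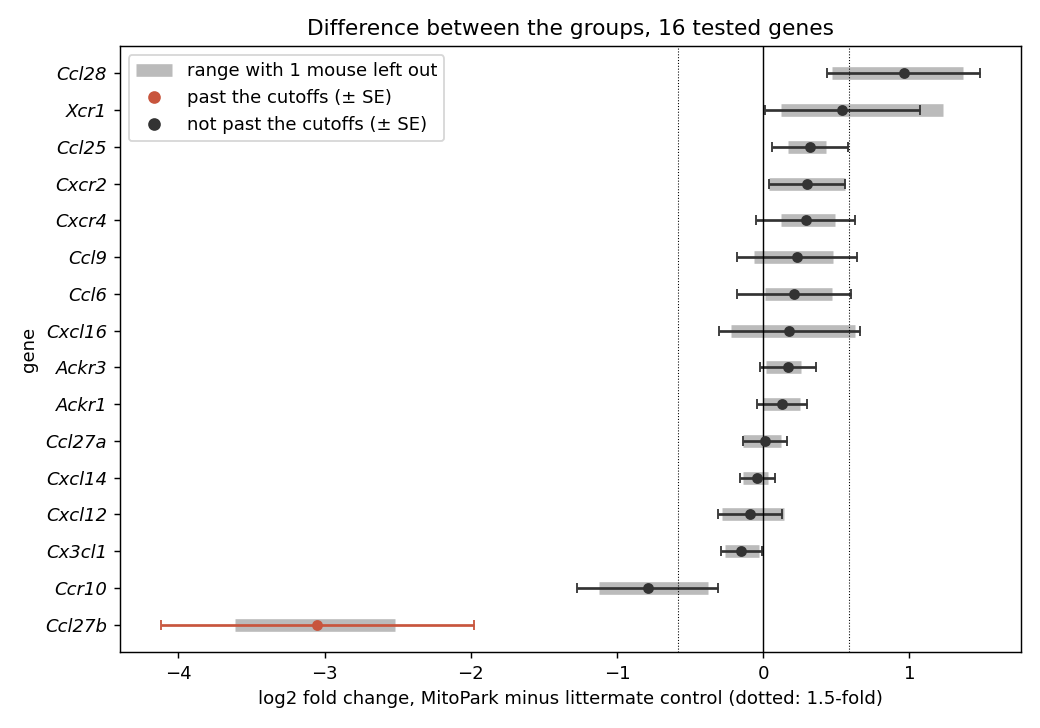
Log2 fold change of each tested gene (MitoPark minus littermate control, edgeR) with its standard error, over a grey bar for the range when each mouse was left out in turn. Ccl27b at -3.05 is past the cutoffs, and of the others Ccl28 and Ccr10 alone lie beyond the 1.5-fold lines.

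Markers of the cells that carry many chemokine receptors were examined beside the members. The 6 microglial markers Cx3cr1, P2ry12, Tmem119, Csf1r, Aif1 and Itgam gave no call, and their summed level ran from 149.9 to 198.2 CPM in littermate controls and from 182.3 to 199.1 CPM in MitoParks. Their median log2 fold change was 0.19, with 5 estimates above 0 and 1 below. Aif1, which encodes the microglial protein IBA1, was at 3.23, 3.13 and 3.12 CPM in the 3 littermate controls, against 3.41, 4.34 and 6.12 CPM in the MitoParks (log2 fold change 0.55, unadjusted p = 0.0752 in the quasi-likelihood test of edgeR). Of 6 macrophage markers 4 were tested, and 1 of them was called higher, against 0.378% of all genes tested. That gene, Mrc1, the mannose receptor of perivascular macrophages, was at 2, 2.47 and 2.44 CPM in the 3 littermate controls, against 3.65, 4.65 and 4.19 CPM in the MitoParks. Its log2 fold change was 0.85 (unadjusted p = 0.00817, same test), while the sum of that list was 22.5 to 24.9 CPM in littermate controls and 18.4 to 29.2 CPM in MitoParks. The T and NK cell markers present in the table summed to 0.474 to 0.89 CPM and 0.731 to 1.47 CPM in littermate controls and MitoParks. The part of these cells in the levels of the members was not tested.

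Cx3cl1, or fractalkine, is a membrane-bound neuronal ligand that microglia read through Cx3cr1. It was at 294.6, 235.6 and 230.8 CPM in the 3 littermate controls, against 264.0, 222.2 and 198.4 CPM in the MitoParks. MitoParks 2 and 3 were the lowest of the 6 mice, but MitoPark 1 was above littermate controls 2 and 3, so the groups overlapped. The log2 fold change was -0.15 (standard error 0.14, unadjusted p = 0.312 in the quasi-likelihood test of edgeR). Cx3cr1 was at 38.5, 38.6 and 49.8 CPM in the 3 littermate controls, against 45.4, 38.1 and 42.4 CPM in the MitoParks, with a log2 fold change of -0.01. This ligand and receptor pair was the most read of all pairs examined.

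Ccl27 and Ccl28 are epithelial chemokines that share the receptor Ccr10. The mouse genome holds several copies of Ccl27 on chromosome 4, and the copies matter here because the only member called here was one of them. In the GENCODE annotation of build GRCm38, the coding part of Ccl27a lies at chr4:41769498-41770190 on the minus strand, that of Ccl27b at chr4:42655285-42655977 on the plus strand, and that of Gm13306, a copy known by a provisional symbol and not a member, at chr4:42158126-42158818 on the plus strand. Each has 363 coding bases. Positions 172 to 348 of the coding sequence are shown because they hold every base at which the 3 copies differ, given in capitals, with positions counted from 1 at the start codon.
Ccl27a: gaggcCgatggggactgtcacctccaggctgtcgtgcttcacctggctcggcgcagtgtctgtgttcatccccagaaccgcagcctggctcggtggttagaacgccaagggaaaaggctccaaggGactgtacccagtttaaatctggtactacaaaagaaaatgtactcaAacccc
Ccl27b: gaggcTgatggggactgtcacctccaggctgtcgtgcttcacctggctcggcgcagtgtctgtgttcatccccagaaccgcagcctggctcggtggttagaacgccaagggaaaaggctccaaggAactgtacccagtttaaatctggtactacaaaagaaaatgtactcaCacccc
Gm13306: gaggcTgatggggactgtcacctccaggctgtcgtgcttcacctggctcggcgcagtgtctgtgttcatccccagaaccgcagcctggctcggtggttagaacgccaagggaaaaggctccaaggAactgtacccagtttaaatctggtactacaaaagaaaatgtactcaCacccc

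Ccl27b and Gm13306 did not differ at any coding base, and both differed from Ccl27a at 3, namely C177T, G297A and A343C (Ccl27a base first). In windows of 150 bases, the length of the reads, 269 of the 276 windows of the Ccl27b transcript, or 97.5%, also occurred in Gm13306 transcripts, and 61 occurred in Ccl27a. Of the 16 tested genes, 14 had no window in common with another gene, the exceptions being Ccl27a and Ccl27b. Counts were not whole in any mouse for 4 tested genes, Ccl27a, Ccl9, Cxcr2 and Xcr1. For Ccl9, Cxcr2 and Xcr1 the levels thus also hold divided reads, which exact windows in the annotation used here did not show. In the longest Gm13306 transcript, 271 of 393 windows occurred in another gene, so some of its reads can be told apart. The counts of Ccl27b thus depend in part on how RSEM divided reads between copies with the same coding sequence. The part of this division in the differences between mice was not tested.

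Ccl27b had 19.80, 17.92 and 0.74 expected counts in the littermate controls, against 1.82, 1.51 and 0.00 in the MitoParks. Littermate controls 1 and 2 were high, while littermate control 3 lay among the MitoParks. All 3 MitoParks and littermate control 3 were at or under 3 counts, and the gene reached the test limit through the littermate controls alone. In the quasi-likelihood test of edgeR its p was 0.0183 before and 0.999 after Benjamini-Hochberg adjustment, and the exact two-sided permutation test gave p = 0.3, where the smallest that 3 mice against 3 allow is 0.1. The call was lost without littermate control 2 (log2 fold change -2.81) and without MitoPark 3 (-2.52), and under limma-voom (-2.33, unadjusted p = 0.0934), and without littermate control 1 the gene was too low to be tested.

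Gm13306 had a different order of mice. It had 21.10, 1.13 and 19.44 expected counts in the 3 littermate controls, against 3.31, 0.00 and 16.04 in the MitoParks. Littermate control 3 and MitoPark 3, nearly without Ccl27b, had many counts for Gm13306, and littermate control 2 had the reverse. Of the summed counts of Ccl27b and Gm13306, whose coding bases are identical, Ccl27b had 48.4%, 94.1% and 3.67% in littermate controls and 35.5%, 100% and 0% in MitoParks.

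Added together, Ccl27b and Gm13306 had 40.90, 19.05 and 20.18 counts in the 3 littermate controls, against 5.13, 1.51 and 16.04 in the MitoParks. Scaled to library size the sum was 4.56, 1.8 and 1.95 CPM in the littermate controls, against 0.609, 0.202 and 1.81 CPM in the MitoParks. MitoParks 1 and 2 were the lowest mice, and MitoPark 3 lay beside littermate control 2, so the groups overlapped. Fitted as 1 gene, a step chosen after the values were seen, they gave a log2 fold change of -1.66 (standard error 0.65, unadjusted p = 0.0303, Benjamini-Hochberg adjusted p = 0.999 in the quasi-likelihood test of edgeR) in place of -3.05 for Ccl27b alone. The sum stayed past the cutoffs in 3 of 6 fits that left out 1 mouse, with log2 fold changes from -2.77 (without MitoPark 3) to -1.10 (without littermate control 1), and was lost without littermate control 1, MitoPark 1 or MitoPark 2.

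**Figure D4:**
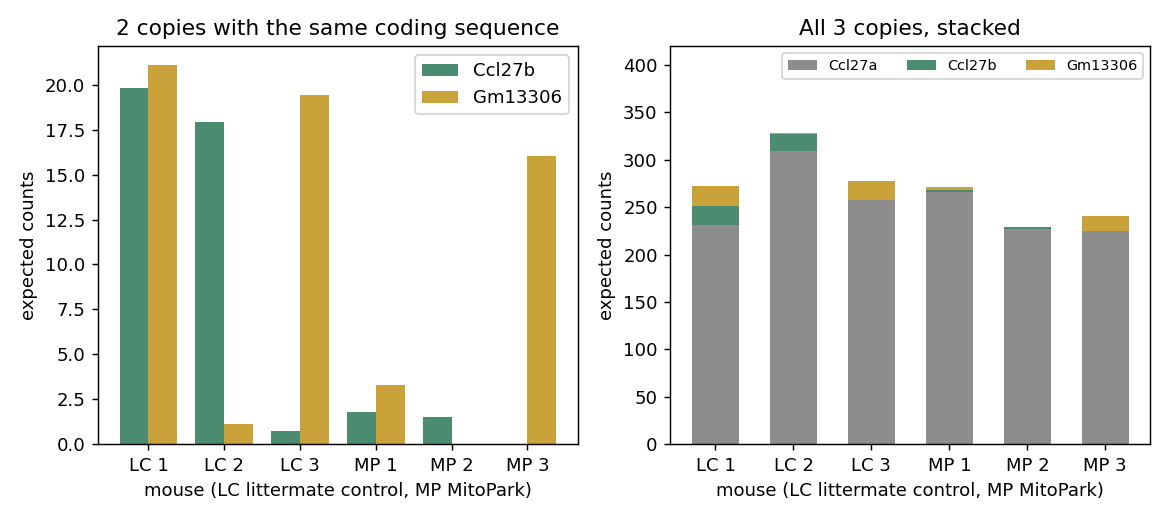
Expected counts of the Ccl27 copies in each mouse (LC littermate control, MP MitoPark), side by side for Ccl27b and Gm13306 on the left and stacked with Ccl27a on the right. The left bars trade places between mice, as in LC 2 (17.92 against 1.13) and LC 3 (0.74 against 19.44), while the stacked totals lie between 228.73 and 328.13.

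Ccl27a held most reads of the copies. It was at 25.8, 29.3 and 25.1 CPM in the 3 littermate controls, against 32.4, 22.9 and 25.4 CPM in the MitoParks, and the groups overlapped, and the estimate was 0.01 on the log2 scale (standard error 0.15). All 3 copies summed gave a log2 fold change of -0.09 (standard error 0.15, unadjusted p = 0.567, quasi-likelihood test of edgeR), from 272.44, 328.13 and 277.26 counts in the 3 littermate controls, against 271.04, 228.73 and 240.50 in the MitoParks. The neighbouring Il11ra1, the interleukin 11 receptor gene beside Ccl27a, had a log2 fold change of -0.08.

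Ccl28 was at 3.23, 3.61 and 0.488 CPM in the 3 littermate controls, against 4.87, 5.45 and 3.85 CPM in the MitoParks. Every MitoPark was above every littermate control, and littermate control 3 was the low one, with 5 counts against 29 to 54 in the other mice. The log2 fold change was 0.96 (standard error 0.52), which did not pass the test (unadjusted p = 0.0968 in the quasi-likelihood test of edgeR). Without littermate control 3 it was 0.47. Limma-voom called the gene, at a log2 fold change of 1.37 (unadjusted p = 0.0421).

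Ccr10, the receptor of Ccl27 and Ccl28, went the other way in its values, at 1.34, 1.14 and 1.46 CPM in the 3 littermate controls, against 1.1, 0.303 and 0.906 CPM in the MitoParks. The groups did not overlap, but between 3 and 15 counts per mouse lie behind these levels. The gene was tested only because the littermate controls, where it was higher, reached the limit, so this separation is not independent of the filter. Its log2 fold change was -0.79 (standard error 0.48, unadjusted p = 0.135 in the quasi-likelihood test of edgeR, exact permutation test p = 0.1). It ranged from -1.12 to -0.38 with each mouse left out.

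Cxcl12 holds stem cells and neurons in place through Cxcr4, and Ackr3 removes it. Cxcl12 was at 44.1, 31.6 and 57.2 CPM in the 3 littermate controls, against 33.5, 41.4 and 50.1 CPM in the MitoParks, a wide spread within both groups. Its log2 fold change of -0.09 turned to 0.14 without littermate control 3 and to 0.05 without MitoPark 1. Cxcr4 was at 1.89, 1.33 and 1.56 CPM in the 3 littermate controls, against 2.07, 1.41 and 2.38 CPM in the MitoParks. Ackr3 was at 10.1, 7.4 and 10.5 CPM and at 9.74, 10.8 and 10.9 CPM in the same order. The groups overlapped for all 3 genes of this axis, and none passed the test, with unadjusted p-values of 0.699, 0.419 and 0.397 (quasi-likelihood test of edgeR).

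Cxcl14, whose receptor is not settled, was among the steadiest of the 16 genes. It was at 52.8, 67.9 and 64.9 CPM in the 3 littermate controls, against 57.1, 60.6 and 62.9 CPM in the MitoParks, the latter within the range of the former, and its estimate was -0.04 on the log2 scale (standard error 0.12). Cxcl16, a transmembrane ligand of Cxcr6, was at 2.56, 1.8 and 0.586 CPM in the 3 littermate controls, against 1.58, 1.82 and 2.15 CPM in the MitoParks. Littermate control 3 was again the lowest mouse, and the log2 fold change of 0.18 turned to -0.22 without it.

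Cxcr2, the receptor for neutrophil-attracting CXC ligands and in the brain also a receptor of oligodendrocyte precursors, was at 9.01, 8.54 and 9.86 CPM in the 3 littermate controls, against 11.8, 7.07 and 15 CPM in the MitoParks. The littermate controls were close to each other, and the MitoParks lay on both sides of them. The log2 fold change was 0.30 (standard error 0.26, unadjusted p = 0.271 in the quasi-likelihood test of edgeR). Its ligands Cxcl1, Cxcl2, Cxcl3 and Cxcl5 summed to between 1 and 6 counts per mouse. The neutrophil markers in the table summed to 0 to 1.34 CPM in littermate controls and 0.244 to 1.02 CPM in MitoParks, with no gene of that list above 6 counts.

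Ackr1, the Duffy antigen receptor that marks venules, was at 29, 26.8 and 20.8 CPM in the 3 littermate controls, against 32.9, 23.4 and 27.8 CPM in the MitoParks, and the groups overlapped (log2 fold change 0.13, standard error 0.17). Of the CC ligands of myeloid cells, Ccl6 was at 1, 1.42 and 1.95 CPM in the 3 littermate controls, against 1.22, 1.72 and 2.15 CPM in the MitoParks. Ccl9 was at 0.89, 1.9 and 2.25 CPM and at 2.07, 1.41 and 2.49 CPM. The groups overlapped for both, with log2 fold changes of 0.21 and 0.23, and Ccr1, their receptor, never exceeded 3 counts.

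Ccl25, the thymic ligand of Ccr9, was at 3.78, 3.99 and 2.73 CPM in the 3 littermate controls, against 3.9, 4.04 and 5.21 CPM in the MitoParks. MitoPark 3 was the highest mouse, and the others largely overlapped (log2 fold change 0.32, standard error 0.26). Ccr9 itself had 1, 1 and 3 counts in the 3 littermate controls, against 2, 8 and 4 in the MitoParks, too few to test. Xcr1, a receptor of cross-presenting dendritic cells, was at 2.11, 1.04 and 0.391 CPM in the 3 littermate controls, against 1.22, 1.92 and 1.93 CPM in the MitoParks. Its log2 fold change was 0.54 (unadjusted p = 0.334, quasi-likelihood test of edgeR), and without littermate control 1 it was called at 1.23 (unadjusted p = 0.0498).

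Set beside their textbook ligands, 7 of 17 receptors had more than 3 counts in some mouse together with at least 1 of their ligands, Cx3cr1 included. For Xcr1 the receptor was read and its ligand Xcl1 did not exceed 1 count. For Ccr1, Ccr3, Ccr4, Ccr7, Cxcr3 and Cxcr6 a ligand was read and the receptor was not above 3 counts, and Ccr6, Ccr8 and Cxcr5 had neither.

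Genes that carry the signal from these receptors were examined as a list. The list of G protein subunits, arrestins, receptor kinases, small GTPases and kinases held 93 genes, of which 89 were tested. None was called by the quasi-likelihood test of edgeR, DESeq2's Wald test or limma-voom, where 0.577% of all genes tested were called by the first of these, and 1 had an unadjusted p below 0.05, against 1.11% of all genes tested. That gene, Dock2, which activates Rac in migrating leukocytes and microglia, was at 3.34, 3.51 and 4.69 CPM in the 3 littermate controls, against 5.48, 4.85 and 6.68 CPM in the MitoParks. The groups did not overlap, and its log2 fold change of 0.55 (standard error 0.24, unadjusted p = 0.0481, quasi-likelihood test of edgeR) was under the 1.5-fold cutoff. Over the list 38 estimates were above 0 and 51 below, with a median of -0.02. Of 9 genes for chemokine-like proteins and for the processing of chemokines, such as Mif and Dpp4, 4 estimates were above 0 and 5 below, and none was called.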

How the data were processed

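RNA from the SN of 3 MitoParks and 3 littermate controls was analysed. The authors mapped reads to UCSC transcripts with Bowtie2 2.1.0 and deposited expected counts per gene estimated with RSEM 1.2.15, without normalization. The submitters' processing notes name hg38, a human build, and the mouse build is not given in the sources used here. RSEM divides reads that match several genes, so near-identical copies can trade counts. The table's 6 columns were mapped to mice by group word and number, and 0 columns were left over.

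Expected counts were rounded, a group mean over 1 CPM in either group was required, and edgeR 4.0.16 (R 4.3.3) fitted a quasi-likelihood model on group after TMM normalization. Calls required unadjusted p under 0.05 together with more than a 1.5-fold difference, the cutoffs that the study gives for edgeR. A further section of its methods gives a t-test with an adjusted p under 0.05. Benjamini-Hochberg adjustment here ran over all 14568 genes. Standard errors are the log2 fold change over the root of F. Exact permutation tests (scipy 1.17.1) used log2(CPM + 0.1). Detection meant more than 3 counts. Alternatives used DESeq2 1.42.0, limma 3.58.1 and other filters, scalings and sets of mice. The fit was tested on simulated data of 14442 genes. It recovered 100% of the 98 genes given the largest change. It also called 248 genes that were given no change, so an unadjusted call alone is weak.

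Transcript lengths, sequences and shared 150-base windows (same strand) came from GENCODE M21, not the authors' transcript set. Within groups no mice agreed within sampling noise (chi-square per degree of freedom 10.2 or more), so each mouse was 1 replicate. Counting limits cover counting error only, since reads carry no molecular identifiers.

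The members and gene lists were chosen with earlier results of these data known. Values in every mouse are given for members with an unadjusted p below 0.05, members whose groups did not overlap, the 10 highest per kilobase, their ligands or receptors and near-identical copies. The remaining tested members were added. Gm13306, Il11ra1, Il11ra2, Aif1 and Gfap, none of them called, were named outside this rule after their values were seen. Of 62 members by the rule, 1 is not reported here, nor is 1 gene of the marker lists, and both stayed in every fit. Marker lists that no result above turns on gave no call: astrocytes, oligodendrocytes, endothelium, pericytes and fibroblasts, choroid plexus and red cells. B cell markers were too low to be tested. Of 5 DAergic markers Slc6a3 was called lower.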

Additional observations from a re-analysis of the deposited data

How the results depend on the processing

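Leaving out 1 mouse changed more than any choice of scaling. The number of genes called among all tested ranged from 62 to 219 with 1 mouse left out, against 84 with all 6, and was 176 without the low count filter. The calls among chemokine and receptor genes, 1 with all 6 mice, ranged from 0 (without littermate control 2 or MitoPark 3) to 1 with 1 mouse left out, and were 0 with filterByExpr, with CPM above 1 in 3 mice and with either sum of the Ccl27 copies. Both filters removed Ccl27b, and the sums replaced it by a row that is not a member, so Ccl27b could not be counted under these settings. The sum of Ccl27b and Gm13306 was itself past the cutoffs (log2 fold change -1.66), and the sum that also held Ccl27a was not (-0.09). The 1 call was not always Ccl27b, since it was Xcr1 without littermate control 1 and Ccl28 under limma-voom. The signalling genes called ranged from 0 to 2 with 1 mouse left out, the calls being made without littermate control 3 (1) and without MitoPark 2 (2). The median log2 fold change of the tested members ranged from 0.04 (without MitoPark 3) to 0.23 with 1 mouse left out. Every alternative run moved it by less than 0.15, its spread between mice, a wide limit beside the median of 0.17 with all 6. Detected members numbered 51 at a limit of 1 count and 14 when all 6 mice had to exceed 3.

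Over the alternatives, 314 values for single tested members kept direction and call, 3 lost a call, 3 gained one and 12 turned direction. Here the sums of the Ccl27 copies were set against Ccl27b and Ccl27a, and the sum of Ccl27b and Gm13306 is among the 314. The turned values were Ccl27a at -0.01 (limma-voom, replicate block, without littermate control 1), -0.04 (without littermate control 3), -0.14 (without MitoPark 1) and -0.09 (copies summed), Ccl9 at -0.06 (without littermate control 1), Cxcl12 at 0.14 and 0.05, Cxcl14 at 0.03 (without littermate control 2) and 0.01 (without MitoPark 1), and Cxcl16 at -0.22. With each mouse left out in turn these genes ranged from -0.14 to 0.12 (Ccl27a), -0.06 to 0.48 (Ccl9), -0.28 to 0.14 (Cxcl12), -0.14 to 0.03 (Cxcl14) and -0.22 to 0.63 (Cxcl16), and no turned value was called.

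The labels tie same-numbered mice by nothing but the number, and whether they shared a litter or batch is not stated. Their deviations correlated at 0.327, -0.0698 and 0.258, and littermate control 2 correlated best with MitoPark 1, at 0.113. With the replicate number as a block, 126 genes were called, and Ccl27b (-3.06) and Ccl28 (1.10, unadjusted p = 0.0152) made 2 among the members.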

Other observations

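Littermate control 3 had the most DAergic marker RNA. It was also the lowest of the 6 mice for Ccl28 (0.488 CPM), Cxcl16 (0.586 CPM), Xcr1 (0.391 CPM), Ccl25 (2.73 CPM) and Ackr1 (20.8 CPM). This mouse was the highest for Cxcl12 (57.2 CPM) and Ccr10 (1.46 CPM), and for Cx3cr1 (49.8 CPM), which is not a member. Its oligodendrocyte markers summed to 16977.9 CPM, where the other mice ran from 6328.5 to 14452.3 CPM. The choroid plexus markers summed to 186.8 CPM in littermate control 2, where Ccl28 was at 3.61 CPM, and to 27.4 to 63 CPM elsewhere. Littermate control 3 was the lowest mouse for these markers (27.4 CPM) as for Ccl28. Ccl28 was highest in MitoPark 2 (5.45 CPM), which came next after littermate control 2 for the markers (63 CPM). The part of tissue makeup in these values was not tested. These patterns were chosen after the values were seen, and the share of all genes tested for which littermate control 3 was the lowest or highest mouse was not counted.

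MitoPark 3 was the highest mouse for Cxcr2, Ccl25, Ccl6, Cxcr4 and Ccl9, and for Ackr3 by a narrow margin. The share of all genes tested for which this mouse was the highest was not counted, and the genes named here were chosen after the values were seen. It also had 8 counts of Cxcl10, where no other mouse had more than 2, and the highest level of Gfap, the astrocyte intermediate filament, at 549.2 CPM against 170.8 to 355.4 CPM in the other mice.

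Il11ra2, which lies next to Ccl27b on chromosome 4 as Il11ra1 lies next to Ccl27a, is annotated at more than 1 locus and had 4.02, 2.25 and 1.6 counts in the 3 littermate controls, against 5.62, 6.88 and 4.52 in the MitoParks. Each MitoPark was above each littermate control in these few counts, and the gene was too low to be tested.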
